A study of Mus musculus with 24 samples.

Results

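Ebf1-deficient B cell progenitors given back Ebf1 were set directly against the same cells given Pax5, in 2 RNA libraries per vector and across all genes of the exon count table. The 4 libraries were chosen by their labels alone, from 14 RNA libraries and 24 samples in all. The cells were mouse fetal liver cells of the C57BL6/J background, labelled ProB, from fetuses lacking Ebf1 (Ebf1-KO). They were cultured over OP9 stromal cells in IL-7, FLT3 ligand (FL) and KIT ligand (KL) and were spin-infected with the retroviral vector pMiG carrying Ebf1 or Pax5 DNA, so both groups share the Ebf1 deficiency, the culture and the vector backbone. For reference, 2 libraries each were read from Ebf1-KO cells with empty pMiG, wild-type cells with empty pMiG, and cells lacking Pax5 (Pax5-KO) with each of the vectors. The sources used here give no fetal age, sort for infected cells, time after infection, number of fetuses or extent of the Ebf1 deletion. They also do not say whether the 2 replicates came from separate cultures, so p-values speak only to the spread among these samples, and that spread may be technical.

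EBF1 and PAX5 are transcription factors that act one after the other in B cell development. EBF1 opens B-lineage genes in lymphoid progenitors, among them the surrogate light chain genes of the pre-B cell receptor and Pax5 itself. PAX5 then activates genes such as Blnk and represses genes of other blood lineages. The series names MYC, a driver of cell growth and division, as the gene that both factors control. The comparison sets EBF1 returned to its own knockout against PAX5 supplied to the same knockout.

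Promoters of 4 genes higher with Ebf1, the surrogate light chain genes and the B cell coactivator gene Pou2af1, are shown first, since an EBF1 binding peak lay within 1 kb of each start. They are the 250 bases before the RefSeq start (GRCm38.p6, the build that mm10 displays), printed 5′ to 3′ on the gene's strand. None of the 25 named genes that were higher with Ebf1 and had a peak within 1 kb held the full EBF palindrome in this window. Capitals therefore mark its shorter forms CCNNGGG or CCCNNGG, on either strand. These letters stand in 50.7% of 32851 RefSeq windows of this length, the full palindrome in 0.904%, so a match is a description and not a site. The 4 genes were picked after their values were seen, as those with the highest fold change among 12 candidates.
Vpreb2 (chr16:17980315-17980564, + strand): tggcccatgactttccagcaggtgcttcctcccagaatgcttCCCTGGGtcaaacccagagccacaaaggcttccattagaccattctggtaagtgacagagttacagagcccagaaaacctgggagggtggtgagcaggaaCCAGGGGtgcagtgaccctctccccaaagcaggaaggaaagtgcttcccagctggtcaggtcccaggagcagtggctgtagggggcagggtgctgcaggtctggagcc
Igll1 (chr16:16863986-16864235, - strand): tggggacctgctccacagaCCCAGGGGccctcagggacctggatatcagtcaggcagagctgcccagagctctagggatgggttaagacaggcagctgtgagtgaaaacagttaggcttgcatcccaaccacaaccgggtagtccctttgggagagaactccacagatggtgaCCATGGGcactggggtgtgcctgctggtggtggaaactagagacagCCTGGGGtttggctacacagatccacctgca
Vpreb1 (chr16:16869256-16869505, - strand): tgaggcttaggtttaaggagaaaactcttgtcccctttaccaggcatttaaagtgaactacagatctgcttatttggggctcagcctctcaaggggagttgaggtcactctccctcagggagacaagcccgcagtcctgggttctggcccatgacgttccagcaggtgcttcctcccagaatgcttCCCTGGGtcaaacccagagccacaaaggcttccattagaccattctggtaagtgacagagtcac
Pou2af1 (chr9:51213440-51213689, + strand): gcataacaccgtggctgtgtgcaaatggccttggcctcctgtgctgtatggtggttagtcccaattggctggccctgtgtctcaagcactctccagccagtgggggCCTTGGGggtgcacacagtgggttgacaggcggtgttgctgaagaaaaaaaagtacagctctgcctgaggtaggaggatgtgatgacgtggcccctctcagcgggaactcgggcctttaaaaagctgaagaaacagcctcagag
In the Igll1 promoter the capitals CCCAGGGG start 231 bases before the gene start and lie 7 bases from the centre of the EBF1 peak, which spans 16864060 to 16864380. In Vpreb2 the first capitals, CCCTGGG, start 208 bases before the start and lie inside the peak. The same letters in Vpreb1 start 64 bases before its start, also inside the peak. The Vpreb1 and Vpreb2 promoters share an identical run of 91 bases. The 2 genes are near copies, so their reads may have been divided between them by the counting. The Pou2af1 match starts 144 bases before the start and lies outside the peak called there.

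Exon counts in M (mega) were 20.9 and 35.3 in the Ebf1-vector libraries and 21.6 and 28.7 in the Pax5-vector libraries, within a range of 16.1 to 42.1 over the 14 libraries. The log2 counts per M (CPM) of replicates correlated at 0.965 with Ebf1 and 0.934 with Pax5 across genes. On the first principal component of the 6 Ebf1-KO libraries, with 44.5% of the variance, the Ebf1 libraries lay at -82.8 and -78.7, the empty-vector libraries at -5.80 and 1.91, and the Pax5 libraries at 76.1 and 89.4. The next components, with 23.1 and 17.4%, parted the 2 Pax5 libraries from each other. On both, replicate 1 lay above replicate 2 in each group. The second component also parted the empty-vector libraries (68.4 and 36.5) from the Ebf1 libraries (-19.5 and -39.9). Rn45s, the ribosomal RNA precursor, took 19.2 and 12.2% of counts with Ebf1 and 10.8 and 4.98% with Pax5. Its part in other values was not tested.

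The 2 genes carried by the vectors were read first. Ebf1 stood at 857 and 893 CPM in the Ebf1-vector libraries and 252 and 256 in the Pax5-vector libraries (log2 fold change 1.78 ± 0.20 SE, adjusted p = 3.7e-05). Every CPM in the text is per M after TMM scaling, as replicates 1 and 2, and every p is an adjusted p of edgeR. Each SE is approximate, taken as the size of the fold change divided by the square root of the test's F value. It is unreliable where a group is at or near 0. With the empty vector Ebf1 read 244 and 282, and the Pax5 vector did not differ from it by the test (-0.05 ± 0.19, adjusted p = 0.95). Since the knockout cells without an Ebf1 vector held these reads, the summed exons check the vector but not the deletion. Pax5 stood at 37.2 and 33.1 CPM with Ebf1 against 429 and 399 with Pax5 (-3.56 ± 0.29, adjusted p = 2.9e-06), against 2.24 and 2.49 with the empty vector. Both groups therefore held Pax5 transcripts above the empty vector, and they differed in amount. Exon counts do not part vector from endogenous transcripts. Pax5 also overlaps the gene 5730488B01Rik, which read 12.2 and 10.7 CPM with Ebf1, 0.0431 and 0 with Pax5 and 107 and 96.5 in wild type, and the strand setting of the counting is not given in the sources used here. Reads of overlapping genes therefore cannot be parted. Among genes given below this touches Bach2 (Bach2os), Lyn (6330407A03Rik), Ccnd2 (9330179D12Rik), Cd34 (Gm16897), Shmt2 (Ndufa4l2), Ms4a1 (4930526L06Rik), Rag2 (B230118H07Rik), Dkc1 (Mpp1), Gnl3 (Glt8d1 and snoRNA genes), Nop58 and Wdr43 (snoRNA genes), and Bcl2, Cd74, Notch1 and Pold1 (microRNA genes).

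Of 14550 genes tested, 1484 differed between the vectors at an adjusted p under 0.05 (10.2%): 689 were higher with Ebf1 (4.74%) and 795 higher with Pax5 (5.46%). Counts in the gene lists below are to be read beside these shares. The libraries of the 2 vectors did not overlap for any of these 1484 genes, as was also true of 56.0% of all genes tested. Among the called genes, 200 were higher with Ebf1 and 158 higher with Pax5 by 3 or more on the log2 scale. In 67 genes the Pax5 libraries held no read and the Ebf1 libraries were called higher. The reverse was seen in 25 genes. The direction was nearly even, with a median log2 fold change of 0.02 over all genes tested. Fewer genes passed when any library was left out. That leaves 1 library in its group and a weaker test, so a lost call need not come from the library itself. Without Ebf1-vector replicate 1, 357 genes were higher with Ebf1 and 317 with Pax5, and without replicate 2 of that vector 290 and 345. Without Pax5-vector replicate 1 the counts were 386 and 553, and without its replicate 2 they were 437 and 481. In bulk RNA, fewer cells of a type and less RNA per cell cannot be told apart.

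**Figure D1:**
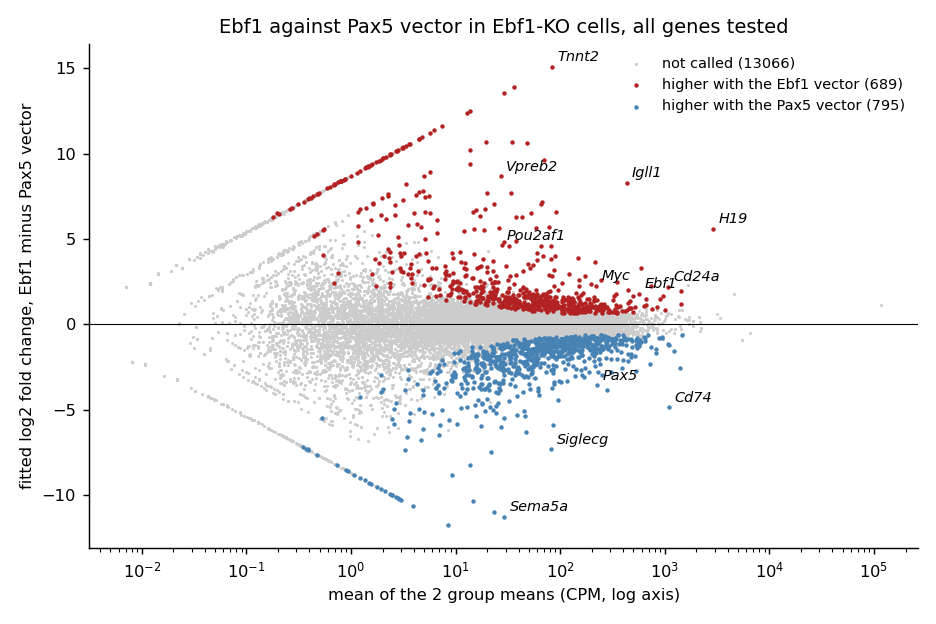
Fitted log2 fold change (Ebf1 minus Pax5 vector) against the mean of the 2 group means in CPM (log axis) for the 14550 genes tested, with 689 genes higher with Ebf1 in red and 795 higher with Pax5 in blue. The straight outer lines are genes at 0 counts in one group, whose fitted fold depends on the prior count.

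The listed chains of the pre-B receptor, which do not include its heavy chain, were higher with Ebf1. All 6 tested members of the list of surrogate light chain and B cell receptor chains were higher with Ebf1 (median log2 fold change 4.81). Igll1, which codes for the lambda5 part of the surrogate light chain, stood at 852 and 867 CPM with Ebf1 and at 0.345 and 4.89 with Pax5 (log2 fold change 8.31 ± 0.71 SE, adjusted p = 4.5e-06). Its Ebf1 level lay in the range of wild type, 1047 and 822, while the empty vector gave 0.320 and 0.414. Vpreb1, the other part of the surrogate light chain, read 138 and 126 against 1.68 and 0.227 CPM (7.19 ± 0.59, adjusted p = 3.3e-06), and Vpreb2 54.7 and 53.2 against 0 and 0.227 (8.68 ± 0.60, adjusted p = 1.9e-06). For all 3 genes the Ebf1 libraries were high and close together, while the Pax5 libraries were near 0 and differed from each other by over 5 times in CPM where both had reads. The signalling chains of the receptor differed less. Cd79a (Ig-alpha) read 34.2 and 41.7 with Ebf1 against 7.93 and 6.21 with Pax5 (2.43 ± 0.26, adjusted p = 3.4e-05), and Cd79b (Ig-beta) 123 and 129 and 32.6 and 32.1 (1.96 ± 0.22, adjusted p = 4.8e-05). Both chains were above the empty vector with either factor. Vpreb3, a chaperone of the pre-B receptor, stood at 3.90 and 4.05 against 0.560 and 0.906 (2.41 ± 0.67, adjusted p = 0.036) and lost its call when any of the 4 libraries was left out (largest adjusted p = 0.18).

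Of 16 genes known as EBF1 targets, 10 were higher with Ebf1 and 2 higher with Pax5 (median 1.87). Pax5, itself a vector gene, was among the latter. Pou2af1, a coactivator of B cell genes, read 49.1 and 57.0 CPM with Ebf1, 1.77 and 2.43 with Pax5 and 0.137 and 0.104 with the empty vector (log2 fold change 4.65 ± 0.31 SE, adjusted p = 8.0e-07). Both vector groups stayed far under wild type, 2979.9 and 2803. Rag1, a subunit of the V(D)J recombinase, read 530.1 and 521 against 141 and 165 (1.78 ± 0.21, adjusted p = 8.5e-05). Its partner Rag2 read 164 and 201 against 235 and 223 and did not pass (-0.33 ± 0.21, adjusted p = 0.37). Rag1 was the 1 of 10 recombination genes that passed, beside 10.2% of all genes tested. Cd24a, the heat stable antigen of B cell precursors, stood at 1627 and 1929 with Ebf1 against 371 and 407 with Pax5 (2.19 ± 0.20, adjusted p = 7.7e-06). Foxo1, a transcription factor upstream of the Rag genes, read 258 and 236 against 127 and 138 (0.90 ± 0.17, adjusted p = 0.0031).

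Further surface and regulatory genes of the lineage were higher with Ebf1. Ly6d, a marker of B-lineage specified progenitors, read 103 and 123 CPM with Ebf1 against 8.96 and 3.66 with Pax5 (log2 fold change 4.17 ± 0.41 SE, adjusted p = 1.6e-05), while the empty vector gave 10.8 and 16.3. Bst1, an ectoenzyme of pre-B cells, read 24.6 and 34.0 against 6.21 and 3.92 (2.54 ± 0.34, adjusted p = 0.00019). Myb, a transcription factor needed for progenitor expansion, read 662 and 735 against 313 and 366 (1.04 ± 0.19, adjusted p = 0.0028), with 355 and 366 in the empty vector. Ms4a1, which codes for CD20, read 18.9 and 14.7 against 1.29 and 2.88 (3.00 ± 0.81, adjusted p = 0.031), and lost its call when any of the 4 libraries was left out (largest adjusted p = 0.18).

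**Figure D2:**
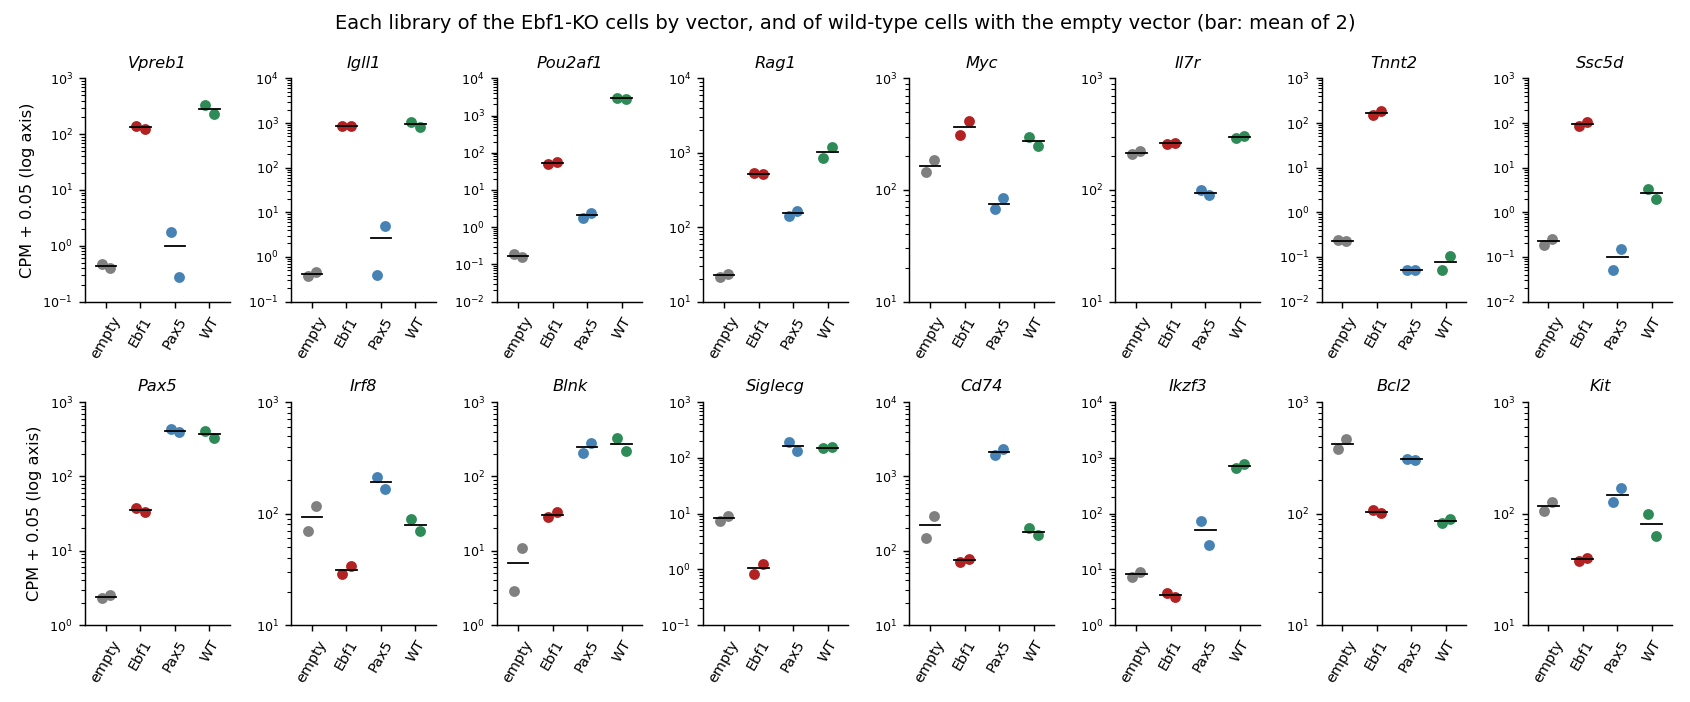
CPM plus 0.05 (log axis) of 16 genes in each library of the Ebf1-KO cells with empty, Ebf1 or Pax5 vector and of wild-type cells with empty vector, with a bar at the mean of 2. The upper row holds genes higher with Ebf1 than with Pax5 and the lower row genes higher with Pax5. The genes were picked from the called genes, none of which overlapped between the vectors. The same was true of 56.0% of all genes tested.

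The 12 called genes with the highest fitted fold change toward Ebf1 and a mean of at least 10 CPM were Tnnt2, Col26a1, Lgr6, Car3, Pkp1, Rbm24, Ret, Tcf15, Clgn, Apoa4, Ssc5d and Adamts7. Their order rests on fitted values, which depend on the prior count where the Pax5 libraries held no read. Tnnt2 (chromosome 1, 135836334 to 135852268, mm10), the troponin T of heart muscle, read 150.2 and 181 CPM with Ebf1 and 0 in both Pax5 libraries, at least 3063-fold higher against a floor of 3 counts over the group. Its empty-vector libraries read 0.183 and 0.173 and its wild-type libraries 0 and 0.0572. High Tnnt2 was also read with the Ebf1 vector in Pax5-KO cells, at 14.5 and 51.3 against 0.326 and 0.651 with the Pax5 vector there (6.01 ± 0.65, adjusted p = 9.9e-05). Col26a1 (chromosome 5, 136741760 to 136883215), a collagen, read 76.5 and 69.1 against 0 (at least 1297-fold higher), and Lgr6 (chromosome 1, 134986353 to 135105276), a receptor for R-spondins, 54.1 and 61.1 against 0 (at least 1055-fold higher). Car3, a carbonic anhydrase of muscle and fat, read 24.3 and 30.9 against 0 (at least 513-fold), and Pkp1, a desmosome protein, 20.8 and 30.4 against 0 (at least 484-fold).

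The other genes at 0 in both Pax5 libraries were Rbm24, Ret and Tcf15. Rbm24, a splicing factor of muscle, read 17.6 and 12.1 CPM with Ebf1 (at least 256-fold higher), Ret, a receptor tyrosine kinase, 11.8 and 13.2 (at least 229-fold), and Tcf15, a transcription factor of somites, 14.7 and 8.13 (at least 190.4-fold). Apoa4, an apolipoprotein, read 39.4 and 37.9 with Ebf1 against 0.0431 and 0 with Pax5, a ratio of 2083 with a 95% counting interval of 373 to 82299. Ssc5d, a scavenger receptor family member, read 85.7 and 105 against 0 and 0.0971, a ratio of 1765 with a 95% counting interval of 604 to 8559.6. Adamts7, a secreted protease, read 25.4 and 29.0 against 0 and 0.0324, a ratio of 1497 with a 95% counting interval of 268 to 59168. Of these 12 genes Clgn, a chaperone of the endoplasmic reticulum known from testis, was the one with a high level in wild type: 61.1 and 76.7 with Ebf1, 0.0431 and 0.0324 with Pax5 (a ratio of 1919 with a 95% counting interval of 531 to 15849.8) and 161 and 139 in wild type. The other 11 had at most 3.31 CPM in a wild-type library. All 12 kept their calls when any 1 of the 4 libraries was left out.

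Genes of MHC class II antigen presentation were among those higher with Pax5. Of 10 MHC class II genes tested, 6 were higher with Pax5 and none higher with Ebf1, and the fitted fold change of all 10 lay below 0 (median -4.40). Cd74, the invariant chain, read 1974 and 2307 CPM with Pax5 and 71.5 and 77.0 with Ebf1 (log2 fold change -4.85 ± 0.39 SE, adjusted p = 2.9e-06). The empty vector gave 147 and 298 and wild type 202 and 162, so the Pax5 libraries stood above both. H2-Eb1, a class II beta chain, read 70.6 and 115 against 0.771 and 1.51 (-6.31 ± 0.79, adjusted p = 0.00012), and H2-Ab1 83.3 and 96.2 against 2.99 and 1.31 (-5.40 ± 1.05, adjusted p = 0.0038). H2-Aa, the alpha chain that pairs with the latter, read 149 and 186 against 1.20 and 4.31 (-5.89 ± 1.30, adjusted p = 0.0089). Ciita, the master activator of class II genes, read 41.1 and 47.9 against 1.06 and 1.63 (-5.04 ± 1.02, adjusted p = 0.0059), and H2-Ob, part of a peptide loading modulator, 105 and 60.4 against 4.92 and 5.73 (-3.95 ± 0.79, adjusted p = 0.0047). Some of these calls were lost when a library was left out. H2-Ab1 lost its call without Ebf1-vector replicate 2 (adjusted p = 0.060), H2-Ob without Ebf1-vector replicate 1 (adjusted p = 0.056), H2-Aa without Ebf1-vector replicate 1 (adjusted p = 0.091) and Ciita without Ebf1-vector replicate 1 (adjusted p = 0.073) or Ebf1-vector replicate 2 (adjusted p = 0.055). In all, 3 of the 10 genes passed without Ebf1-vector replicate 1 and 4 without replicate 2.

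Genes known to be activated by PAX5 moved mostly in that direction: 10 of 15 tested were higher with Pax5, Cd79a was higher with Ebf1, and 4 did not pass (median -1.42). Blnk, the adaptor that links the pre-B receptor to its kinases, read 209.9 and 285 CPM with Pax5 and 28.0 and 33.3 with Ebf1 (log2 fold change -3.01 ± 0.51 SE, adjusted p = 0.0014). Wild type read 329.5 and 221, so 1 of the 2 Pax5 libraries lay between the wild-type values and the other below both. Ikzf3 (Aiolos), a zinc finger factor of pre-B cells, read 73.3 and 27.1 against 3.81 and 3.17 (-3.85 ± 0.42, adjusted p = 3.8e-05). Siglecg, an inhibitory sialic acid receptor, read 195 and 132 against 0.771 and 1.23 (-7.32 ± 0.62, adjusted p = 4.5e-06), and its Ebf1 libraries were under the empty vector too, 7.46 and 9.05. Irf8, a transcription factor of B and dendritic cells, read 215 and 167 against 28.8 and 33.6 (-2.61 ± 0.29, adjusted p = 4.1e-05). Bach2, a repressor that holds back plasma cell genes, read 323 and 356 against 114 and 139 (-1.42 ± 0.21, adjusted p = 0.00045).

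Of 16 kinases and adaptors of the pre-B receptor, 7 were higher with Pax5 and 2, Prkcb and Dok3, higher with Ebf1 (median -0.90). Lyn, a Src family kinase, read 585 and 696 CPM with Pax5 and 144 and 161 with Ebf1 (log2 fold change -2.07 ± 0.22 SE, adjusted p = 3.3e-05), and Syk, which the receptor activates, 559 and 623 against 245 and 269 (-1.20 ± 0.22, adjusted p = 0.0029). Rasgrp3, which activates RAS downstream of the receptor, read 27.7 and 54.9 against 1.83 and 1.14 (-4.83 ± 0.36, adjusted p = 2.1e-06). So the listed receptor chains were higher with Ebf1 and most of the called kinases and adaptors higher with Pax5. Dok3, an inhibitory adaptor, read 9.93 and 18.9 with Ebf1 against 3.19 and 2.98 (2.23 ± 0.42, adjusted p = 0.0031) and lost its call without Ebf1-vector replicate 2 (adjusted p = 0.063). Prkcb, a protein kinase C, read 189 and 189 against 129 and 97.9 (0.74 ± 0.18, adjusted p = 0.014) and lost its call without Ebf1-vector replicate 1 (adjusted p = 0.089), Ebf1-vector replicate 2 (adjusted p = 0.095) or Pax5-vector replicate 2 (adjusted p = 0.13). Neither passed without Ebf1-vector replicate 2, which left 0 members higher with Ebf1.

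In the list of 22 B cell surface antigens, 9 were higher with Pax5 and 4 higher with Ebf1, and among 20 transcription factors of the lineage 10 were higher with Pax5 and 4 with Ebf1. A vector gene that belongs to a list was not taken out of its counts, and its direction was set by the vectors. Tnfrsf13c, the BAFF receptor, read 193 and 161 CPM with Pax5 and 45.8 and 60.0 with Ebf1 (log2 fold change -1.74 ± 0.26 SE, adjusted p = 0.00054). Enpep, an aminopeptidase known as BP-1, read 1.08 and 0.485 with Pax5 and 0 in both Ebf1 libraries, at least 13.8-fold higher, a call that was lost when only the 4 or the 6 Ebf1-KO libraries were fitted (adjusted p = 0.059 and 0.050). Tcf4, an E protein, read 418 and 454 against 189 and 219 (-1.10 ± 0.17, adjusted p = 0.00069). Klf2, a factor of resting lymphocytes, read 38.4 and 52.0 against 7.47 and 10.2 (-2.35 ± 0.50, adjusted p = 0.0069) and lost its call without Ebf1-vector replicate 1 (adjusted p = 0.093) or Pax5-vector replicate 2 (adjusted p = 0.052). Irf4, a factor of light chain recombination and plasma cells, read 211 and 219 against 91.3 and 95.0 (-1.21 ± 0.32, adjusted p = 0.026) and lost its call when any of the 4 libraries was left out (largest adjusted p = 0.15). The number of these transcription factors higher with Pax5 was 5 without Ebf1-vector replicate 1 and 6 without Pax5-vector replicate 2, and that of surface antigens was 4 without Ebf1-vector replicate 1.

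The 12 called genes with the lowest fold changes and at least 10 CPM with Pax5 were 4930426D05Rik, Sema5a, Klhl14, Rd3, Tmc7, Pald1, Slamf6, Siglecg, Pllp, H2-Eb1, Bhlhe41 and Polm. Sema5a (chromosome 15, 32244813 to 32696341), a guidance cue of the semaphorin family, read 56.3 and 60.0 CPM with Pax5 and 0.0482 and 0 with Ebf1, a ratio of 3258 with a 95% counting interval of 584 to 128728. Its wild-type libraries read 35.8 and 33.6 and its empty-vector libraries 0.458 and 0.173. Klhl14, a B cell substrate adaptor for protein turnover, read 40.8 and 51.5 with Pax5 and 0 and 0.0285 with Ebf1, a ratio of 2619.7 with a 95% counting interval of 469.8 to 103512. It overlaps 4930426D05Rik, which read 16.1 and 17.4 with Pax5 and 0 with Ebf1 (at least 314-fold higher), so their reads cannot be parted. Slamf6, a receptor of the SLAM family, read 45.0 and 42.4 against 0.241 and 0.228 (log2 fold change -7.52 ± 1.22 SE, adjusted p = 0.0017), and Bhlhe41, a repressor of the circadian clock also active in B-1 cells, 52.1 and 55.7 against 1.64 and 0.114 (-6.02 ± 1.18, adjusted p = 0.0041).

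Sema5a, Klhl14, Tmc7, Slamf6, Siglecg and Bhlhe41 each had more than 20 CPM in both wild-type libraries. Rd3, known from the retina, did not: it read 28.4 and 30.3 CPM with Pax5, 0 and 0.0285 with Ebf1 (a ratio of 1646 with a 95% counting interval of 295 to 65056) and 0 and 0 in wild type. Tmc7, of a transmembrane channel family, read 16.2 and 21.1 with Pax5 and 0.0482 and 0.0285 with Ebf1, a ratio of 529.6 with a 95% counting interval of 146 to 4379. Pald1 read 25.8 and 29.1 against 0.0482 and 0.114 (log2 fold change -8.24 ± 1.01 SE, adjusted p = 0.00014). Pllp, a myelin protein, read 14.8 and 12.6 against 0.0482 and 0.228 (-6.50 ± 1.23, adjusted p = 0.0032) and lost its call without Ebf1-vector replicate 1 (adjusted p = 0.053). Polm, a polymerase of end joining, read 37.1 and 32.3 against 0.867 and 0.285 (-5.94 ± 1.37, adjusted p = 0.012) and lost its call without Ebf1-vector replicate 1 (adjusted p = 0.059) or Ebf1-vector replicate 2 (adjusted p = 0.13).

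Myc, the gene that the series is built around, was higher with Ebf1. Myc (chromosome 15, 61985341 to 61990361) read 308 and 418 CPM with Ebf1 against 66.8 and 84.3 with Pax5 (log2 fold change 2.26 ± 0.26 SE, adjusted p = 5.7e-05), and the empty-vector libraries lay between, at 143 and 187. Both Ebf1 libraries were above and both Pax5 libraries under every empty-vector library. Of 12 members of the MYC and MAX network, Myc was the one higher with Ebf1 and Mlxip, a glucose-responsive partner of MLX, the one higher with Pax5 (250.4 and 244 against 118 and 104 CPM, -1.16 ± 0.19, adjusted p = 0.0014). Over all genes tested 4.74% were higher with Ebf1 and 5.46% higher with Pax5. Mycn, the related factor of fetal progenitors, read 34.1 and 48.2 with Ebf1 against 63.0 and 64.6 with Pax5 and did not pass (-0.63 ± 0.39, adjusted p = 0.36), while the empty vector gave 176 and 238.

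Part of the genes of ribosome assembly, a class that MYC is known to activate, were higher with Ebf1. Of 28 tested, 13 were higher with Ebf1 and none with Pax5, and all 28 fitted fold changes lay above 0 (median 0.95, against 0.02 over all genes). Gnl3, a nucleolar GTPase, read 173 and 129 CPM with Ebf1 against 39.3 and 36.6 with Pax5 (log2 fold change 1.99 ± 0.22 SE, adjusted p = 3.6e-05), and Nop58, a snoRNP core protein, 236 and 254 against 89.4 and 118 (1.24 ± 0.21, adjusted p = 0.0013).  Polr1a, the large subunit of RNA polymerase I, read 156 and 174 against 71.9 and 72.2 (1.19 ± 0.21, adjusted p = 0.0018), and Wdr43 162 and 173 against 67.1 and 88.3 (1.11 ± 0.20, adjusted p = 0.0025). The empty vector gave 98.0 and 121 for Polr1a, between the vectors. Npm1, the nucleolar chaperone, read 751 and 948 against 340.0 and 485 (1.04 ± 0.29, adjusted p = 0.035), and Dkc1, the pseudouridine synthase of snoRNPs, 225 and 262 against 105 and 127 (1.07 ± 0.26, adjusted p = 0.018). The count of 13 was 6 without Ebf1-vector replicate 1, 5 without its replicate 2, 5 without Pax5-vector replicate 1 and 12 without its replicate 2. Npm1 lost its call without Ebf1-vector replicate 1 (adjusted p = 0.066), Ebf1-vector replicate 2 (adjusted p = 0.23) or Pax5-vector replicate 1 (adjusted p = 0.25) and Dkc1 without Ebf1-vector replicate 1 (adjusted p = 0.053), Ebf1-vector replicate 2 (adjusted p = 0.13) or Pax5-vector replicate 1 (adjusted p = 0.14).

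In nucleotide and one-carbon synthesis 9 of 25 genes were higher with Ebf1 and none higher with Pax5 (median 0.92). Impdh1, an enzyme of guanine nucleotide synthesis, read 164 and 174 CPM with Ebf1, 7.71 and 13.7 with Pax5 and 13.9 and 21.8 with the empty vector (log2 fold change 3.97 ± 0.30 SE, adjusted p = 2.3e-06). Impdh1 stood apart from the rest of the list, whose other fitted fold changes were at most 1.74. Umps, of pyrimidine synthesis, read 100.3 and 115 against 31.5 and 33.3 (1.74 ± 0.34, adjusted p = 0.0037), and Shmt2, of mitochondrial one-carbon metabolism, 612 and 726 against 235 and 281 (1.37 ± 0.22, adjusted p = 0.00093). Phgdh, the first enzyme of serine synthesis, read 69.2 and 76.6 against 17.5 and 28.4 (1.66 ± 0.33, adjusted p = 0.0047) and lost its call without Pax5-vector replicate 1 (adjusted p = 0.064). Without Ebf1-vector replicate 1, Ebf1-vector replicate 2 and Pax5-vector replicate 1 the count was 5, 4 and 6. Of 19 glycolysis genes 1 passed, the lactate carrier Slc16a1 at 145 and 149 against 13.7 and 28.2 CPM (2.80 ± 0.29, adjusted p = 2.4e-05), and the enzymes between hexokinase and lactate dehydrogenase did not pass. Over all genes tested 10.2% passed.

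Among DNA replication genes 8 of 27 were higher with Ebf1 and none with Pax5 (median 0.79). Uhrf1, which maintains DNA methylation, read 621 and 793 CPM with Ebf1, 148 and 199 with Pax5 and 185 and 221 with the empty vector (log2 fold change 2.03 ± 0.26 SE, adjusted p = 0.00014). Pold1, the catalytic subunit of polymerase delta, read 101 and 108 against 39.8 and 35.4 (1.48 ± 0.20, adjusted p = 0.00022). Cdc6, which loads the MCM helicase, read 112 and 122 against 48.0 and 55.2 (1.18 ± 0.25, adjusted p = 0.0064), and Mcm10, which activates it, 102 and 111 against 55.7 and 42.8 (1.11 ± 0.22, adjusted p = 0.0047). Cdc6 lost its call without Ebf1-vector replicate 2 (adjusted p = 0.060) or Pax5-vector replicate 1 (adjusted p = 0.073), and Mcm10 without Ebf1-vector replicate 2 (adjusted p = 0.056) or Pax5-vector replicate 2 (adjusted p = 0.054). In all, 4 of the 27 passed without Ebf1-vector replicate 1, 3 without its replicate 2 and 3 without Pax5-vector replicate 1. Of 20 mitosis genes 1 passed, beside 10.2% of all genes tested: Bub1 of the spindle checkpoint (138 and 137 against 82.0 and 73.1 CPM, 0.83 ± 0.19, adjusted p = 0.012). Bub1 lost its call when any of the 4 libraries was left out, with fitted fold changes of 0.78 to 0.88. The proliferation marker Mki67 read 2357 and 2556 with Ebf1 against 1765 and 1901 with Pax5 and did not pass (0.42 ± 0.19, adjusted p = 0.18).

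**Figure D3:**
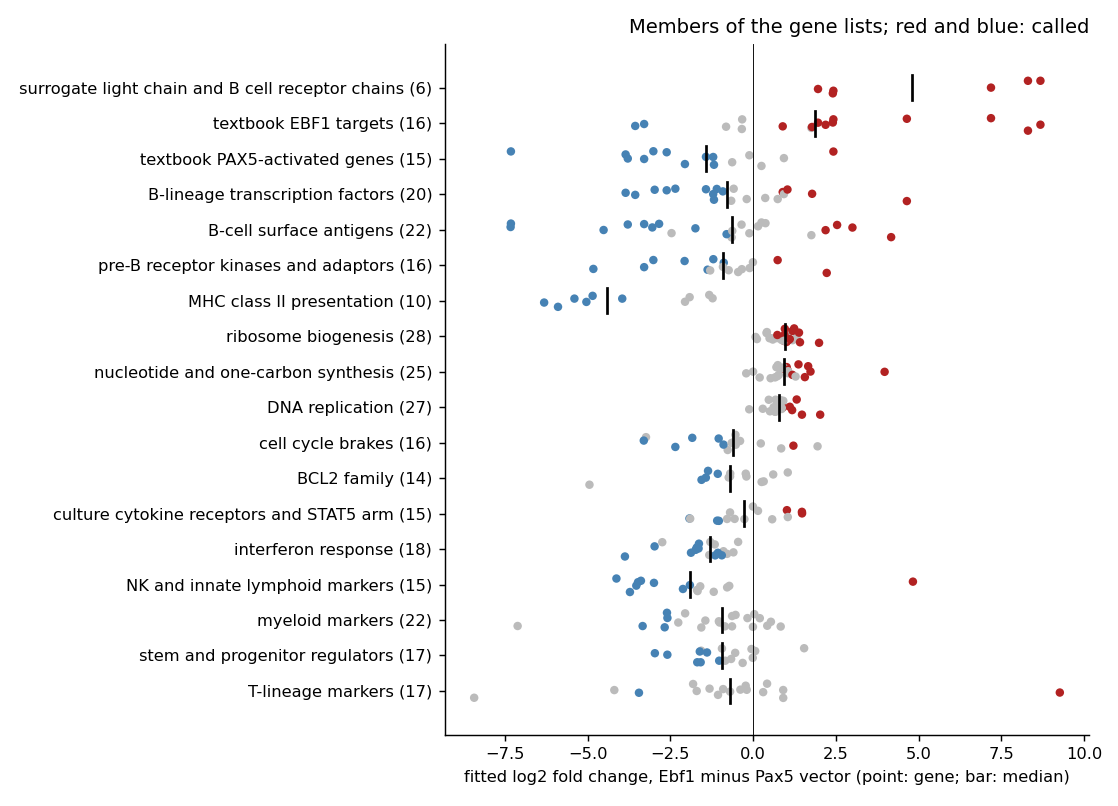
Fitted log2 fold change (Ebf1 minus Pax5 vector) of each tested member of 18 gene lists, with the number tested in parentheses, the list median as a bar, called members higher with Ebf1 in red and higher with Pax5 in blue. Surrogate light chain genes have the highest median (4.81) and MHC class II genes the lowest (-4.40), while ribosome, nucleotide and replication genes cluster just above 0.

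The D cyclins divided between the vectors. Ccnd2 read 859 and 1069 CPM with Ebf1 against 305 and 385 with Pax5 (log2 fold change 1.48 ± 0.24 SE, adjusted p = 0.00089), and its kinase Cdk6 1750.4 and 2222 against 837 and 910.2 (1.19 ± 0.22, adjusted p = 0.0025). Ccnd1 went the other way, at 14.2 and 9.96 with Ebf1 against 59.8 and 51.1 with Pax5 (-2.20 ± 0.37, adjusted p = 0.0012). Ccnd3 read 402 and 456 against 194 and 275 (0.87 ± 0.23, adjusted p = 0.028). It overlaps Bysl and lost its call without Ebf1-vector replicate 1 (adjusted p = 0.080), Ebf1-vector replicate 2 (adjusted p = 0.19) or Pax5-vector replicate 1 (adjusted p = 0.25). Cdk4 read 255 and 268 against 151 and 181 (0.65 ± 0.19, adjusted p = 0.042) and lost its call when any of the 4 libraries was left out (largest adjusted p = 0.29), with RLE scaling (adjusted p = 0.057) and with no filter on low counts (adjusted p = 0.067). Of the 14 genes of this step of the cycle 4 were higher with Ebf1, and 2 without either Ebf1-vector library or without Pax5-vector replicate 1.

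Of 16 brakes on the cell cycle 5 were higher with Pax5 and 1 higher with Ebf1. Btg1, an antiproliferative cofactor, read 233 and 187 CPM with Pax5, 22.7 and 19.9 with Ebf1 and 27.1 and 19.3 with the empty vector (log2 fold change -3.30 ± 0.34 SE, adjusted p = 2.0e-05). Only the Pax5 libraries were high among these 6, and wild type read 178 and 241. Cdkn2d (p19), an inhibitor of CDK4 and CDK6, read 75.4 and 72.8 against 15.4 and 26.0 (-1.84 ± 0.36, adjusted p = 0.0037) and lost its call without Ebf1-vector replicate 1 (adjusted p = 0.072). The pocket protein Rbl2 (p130) read 136 and 201 against 84.6 and 96.7 (-0.89 ± 0.22, adjusted p = 0.019). It overlaps Aktip and lost its call without Ebf1-vector replicate 1 (adjusted p = 0.18), Ebf1-vector replicate 2 (adjusted p = 0.088) or Pax5-vector replicate 2 (adjusted p = 0.24). Cdkn1a (p21) was the member higher with Ebf1, 513 and 722 against 212 and 319 (1.22 ± 0.33, adjusted p = 0.029), and lost its call without Ebf1-vector replicate 2 (adjusted p = 0.23) or Pax5-vector replicate 1 (adjusted p = 0.22). The count of 5 was 1 without Ebf1-vector replicate 1, 3 without its replicate 2 and 2 without Pax5-vector replicate 2.

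Among 14 genes of the BCL2 family, 4 were higher with Pax5 and none higher with Ebf1, and they include both survival and death genes. Bcl2, the survival factor, read 308 and 306 CPM with Pax5 and 107 and 101 with Ebf1 (log2 fold change -1.56 ± 0.20 SE, adjusted p = 0.00014). The empty vector gave 382 and 467 and wild type 82.6 and 90.1, so the Ebf1 libraries were the ones away from the empty vector (-2.03 ± 0.20, adjusted p = 2.5e-05 for Ebf1 and -0.47 ± 0.19, adjusted p = 0.23 for Pax5, each minus the empty vector). Bcl2l11 (BIM), which promotes death, read 322 and 411 against 129 and 143 (-1.43 ± 0.21, adjusted p = 0.00041). Bmf, of the same class, read 258 and 265 against 90.6 and 113 (-1.36 ± 0.26, adjusted p = 0.0036) and lost its call without Ebf1-vector replicate 1 (adjusted p = 0.063). Pmaip1 (NOXA) read 61.6 and 72.9 against 30.6 and 33.7 (-1.07 ± 0.30, adjusted p = 0.035) and lost its call when any of the 4 libraries was left out (largest adjusted p = 0.25) and with no filter on low counts (adjusted p = 0.054). Without Ebf1-vector replicate 1, 2 of the 14 genes passed.

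Receptors for the 3 cytokines of the culture differed among themselves. Il7r, the IL-7 receptor chain, read 259 and 266 CPM with Ebf1 against 98.9 and 89.8 with Pax5 (log2 fold change 1.48 ± 0.20 SE, adjusted p = 0.00026), with 209.9 and 221 in the empty vector, so here the Pax5 libraries were the low ones. Kit, the receptor of KIT ligand, read 37.8 and 40.2 with Ebf1 against 126 and 169 with Pax5 (-1.92 ± 0.26, adjusted p = 0.00025), with 106 and 127 in the empty vector, so the Ebf1 libraries were the low ones. Flt3 read 260.3 and 253 and 202 and 260.3 and did not pass (0.15 ± 0.20, adjusted p = 0.71). Cish, a feedback inhibitor that STAT5 induces, read 164 and 229 against 64.3 and 76.4 (1.48 ± 0.25, adjusted p = 0.0014). Socs2, of the same family, read 415 and 534 against 202 and 265 (1.02 ± 0.23, adjusted p = 0.0098) and lost its call without Ebf1-vector replicate 2 (adjusted p = 0.13) or Pax5-vector replicate 1 (adjusted p = 0.12). Il2rg, the chain that pairs with IL7R, read 168 and 199 against 301 and 449 (-1.03 ± 0.28, adjusted p = 0.029) and lost its call without Ebf1-vector replicate 1 (adjusted p = 0.21), Ebf1-vector replicate 2 (adjusted p = 0.11) or Pax5-vector replicate 2 (adjusted p = 0.26). Of 15 genes of these receptors and of STAT5, 3 were higher with each vector, and 1 was higher with Pax5 without Ebf1-vector replicate 2 or Pax5-vector replicate 2, 2 without either other library.

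Of 18 genes of the interferon response 10 were higher with Pax5 and none with Ebf1, and all 18 fitted fold changes lay below 0 (median -1.31). Oasl2 read 458 and 585 CPM with Pax5 and 44.6 and 26.7 with Ebf1 (log2 fold change -3.87 ± 0.43 SE, adjusted p = 3.8e-05), with 256 and 304 in the empty vector. Oas2, which senses double-stranded RNA, read 491 and 392 against 75.1 and 37.2 (-2.98 ± 0.44, adjusted p = 0.00054), and the related Oas3 191 and 272 against 75.6 and 73.7 (-1.64 ± 0.25, adjusted p = 0.00073). Summed over the list, the libraries held 1033 and 856 CPM with Ebf1, 2988 and 3365 with Pax5, 1937 and 1755 with the empty vector and 133 and 148 in wild type. Without Ebf1-vector replicate 1, Ebf1-vector replicate 2 and Pax5-vector replicate 2 the count was 4 each time. All groups were infected with a retrovirus, and the part of infection in these values was not tested.

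Several markers of other blood cells were higher with Pax5 than with Ebf1. Of 15 NK and innate lymphoid markers 8 were higher with Pax5 and 1, Gzma, higher with Ebf1 (median -1.91). The list summed to 140.1 and 109.6 CPM with Ebf1, 526 and 535 with Pax5, 294 and 348 with the empty vector and 4.20 and 6.18 in wild type. Il2rb, a chain of the IL-2 and IL-15 receptors, read 148 and 171 CPM with Pax5 and 14.1 and 16.3 with Ebf1 (log2 fold change -3.39 ± 0.28 SE, adjusted p = 3.9e-06), and Cd7 105 and 131 against 7.52 and 5.96 (-4.13 ± 0.42, adjusted p = 2.1e-05). Eomes, a factor of NK cells, read 28.5 and 25.4 against 2.75 and 1.37 (-3.72 ± 0.72, adjusted p = 0.0043) and lost its call without Ebf1-vector replicate 2 (adjusted p = 0.070). Gzma, a granzyme, read 69.6 and 41.3 with Ebf1 against 4.01 and 0 (4.83 ± 1.17, adjusted p = 0.016) and lost its call without Ebf1-vector replicate 1 (adjusted p = 0.058), as with DESeq2 (adjusted p = 0.060). Ncr1 (NKp46), a receptor of NK and innate lymphoid cells, was at 0 in both Ebf1 libraries and at 0.474 and 0 with Pax5. The count of 8 was 5 without Ebf1-vector replicate 1, 2 without Ebf1-vector replicate 2 and 5 without Pax5-vector replicate 1. The part of these markers in the B-lineage differences was not tested.

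Of 22 myeloid markers, 4 were higher with Pax5 and none higher with Ebf1 (median -0.93). The list summed to 583 and 560.3 CPM with Ebf1 and 1165 and 1122 with Pax5, against 970.1 and 981 with the empty vector and 246 and 243 in wild type. Itgam (CD11b) read 166 and 125 against 29.3 and 18.7 CPM (log2 fold change -2.60 ± 0.37 SE, adjusted p = 0.00036). Ccr2, a receptor of monocytes, read 178 and 178 against 20.5 and 14.7 (-3.34 ± 0.72, adjusted p = 0.0075) and lost its call without Ebf1-vector replicate 1 (adjusted p = 0.052) or Ebf1-vector replicate 2 (adjusted p = 0.088). Lyz2 (lysozyme) read 94.2 and 51.0 with Ebf1 against 142 and 83.3 with Pax5 and did not pass (-0.63 ± 0.37, adjusted p = 0.33). Among 11 dendritic cell markers 4 were higher with Pax5, including Itgax (CD11c) at 39.3 and 55.9 against 2.07 and 0.571 (-5.20 ± 1.25, adjusted p = 0.015), whose call was lost without Ebf1-vector replicate 1 (adjusted p = 0.053), Ebf1-vector replicate 2 (adjusted p = 0.15) or Pax5-vector replicate 2 (adjusted p = 0.058). The count of myeloid markers was 1 without either Ebf1-vector library and 2 without Pax5-vector replicate 2, and that of dendritic cell markers 2 without any of these 3. Of 17 T-lineage markers, Cd5 was higher with Pax5 (14.6 and 15.3 against 1.69 and 1.06, -3.45 ± 0.94, adjusted p = 0.029) and Bcl11b higher with Ebf1 (3.33 and 2.57 against 0 in both Pax5 libraries, at least 51.4-fold higher, adjusted p = 0.029). Over all genes tested 5.46% were higher with Pax5 and 4.74% higher with Ebf1. Cd5 lost its call when any of the 4 libraries was left out (largest adjusted p = 0.25) and Bcl11b when any of the 4 libraries was left out (largest adjusted p = 0.12) and with DESeq2 (adjusted p = 0.33). The T-lineage list summed to 477 and 584 CPM with Ebf1 and 505 and 571 with Pax5, and the CD3 chain gene Cd3e was at 0 in both Ebf1 libraries and at 0.129 and 0.0324 with Pax5.

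Stem and progenitor regulators were higher with Pax5 in 7 of 17 cases and higher with Ebf1 in none. Mef2c, a factor of lymphoid and myeloid progenitors, read 1186 and 1304 CPM with Pax5 and 351 and 423 with Ebf1 (log2 fold change -1.69 ± 0.18 SE, adjusted p = 2.7e-05). Cd34, the antigen of progenitors, read 206 and 365 against 32.1 and 40.9 (-2.97 ± 0.50, adjusted p = 0.0016), with 249 and 296 in the empty vector. Hhex, a factor of early progenitors, read 169.9 and 225 against 61.9 and 67.6 (-1.61 ± 0.24, adjusted p = 0.00061). Erg, an ETS factor of stem cells, read 134 and 113 against 42.2 and 39.9 (-1.58 ± 0.28, adjusted p = 0.0019) and 5.17 and 10.4 with the empty vector, under both vectors. Without Ebf1-vector replicate 1, 4 of the 17 passed. Of 11 erythroid and megakaryocyte markers 3 were higher with Ebf1, among them Car2 at 124 and 189 against 22.9 and 12.3 (3.15 ± 0.44, adjusted p = 0.00032). Car1 at 7.47 and 2.17 against 0 and Tfrc at 1033 and 922 against 569 and 499.6 were the others. Car1 lost its call without Ebf1-vector replicate 1 (adjusted p = 0.11), Pax5-vector replicate 1 (adjusted p = 0.098) or Pax5-vector replicate 2 (adjusted p = 0.11) and with DESeq2 (adjusted p = 0.28), and Tfrc lost its call when any of the 4 libraries was left out (largest adjusted p = 0.14). The count of 3 was 1 without Ebf1-vector replicate 1 or without either Pax5-vector library. Of 8 tested genes of OP9-type stroma, Sparc was higher with Pax5 (37.7 and 58.4 against 3.52 and 2.40, -4.03 ± 1.12, adjusted p = 0.032), and so was Thbs1 (27.6 and 28.7 against 4.34 and 3.68, -2.81 ± 0.77, adjusted p = 0.030). Sparc lost its call when any of the 4 libraries was left out (largest adjusted p = 0.22) and Thbs1 when any of the 4 libraries was left out (largest adjusted p = 0.21). The 15 stroma genes summed to 44.2 and 32.9 CPM with Ebf1 and 116 and 123 with Pax5, most of it from Sparc, Pdgfrb, Thbs1 and Acta2. Col3a1, Vcam1, Lum and Postn were at 0 in all 4 libraries. Another 5 members had reads with Pax5 only: Col1a1 with 30 counts, Cxcl12 with 16, Pdgfra with 15, Col1a2 with 6 and Col6a1 with 4, and the first 3 had them in Pax5-vector replicate 1 alone. Fn1 (fibronectin) had 271 counts with Pax5 and 14 with Ebf1, while Acta2 (smooth muscle actin) had 614 counts with Ebf1 and 199 with Pax5. The part of stroma in other values was not tested.

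Genes repressed by PAX5 in mature B cells divided: of 13 tested, 3 were higher with Ebf1, 3 higher with Pax5 and 7 did not pass (median -0.22). Jchain, the joining chain of secreted antibody, read 257 and 185 CPM with Ebf1 against 57.1 and 64.7 with Pax5 (log2 fold change 1.86 ± 0.27 SE, adjusted p = 0.00040), with 223 and 216 in the empty vector, so the Pax5 libraries were the low ones. Xbp1, a plasma cell factor, read 174 and 183 against 70.6 and 74.6 (1.30 ± 0.25, adjusted p = 0.0040). Ptcra, the pre-T cell receptor chain, read 0.627 and 0.913 against 0 (at least 14.5-fold higher) and lost its call when any of the 4 libraries was left out (largest adjusted p = 0.17) and when only the 4 libraries were fitted (adjusted p = 0.057). In the opposite direction stood Itgax and Ccr2, given above, and Lmo2 at 52.3 and 81.0 against 27.0 and 23.8 (-1.39 ± 0.38, adjusted p = 0.028), whose call was lost without Ebf1-vector replicate 1 (adjusted p = 0.13), Ebf1-vector replicate 2 (adjusted p = 0.20) or Pax5-vector replicate 2 (adjusted p = 0.22). None of the 3 passed without either Ebf1-vector library, and 1 passed without Pax5-vector replicate 2. The Notch receptors also parted, with Notch3 higher with Ebf1 (34.0 and 37.8 against 5.47 and 2.98, 3.09 ± 0.39, adjusted p = 0.00013) and Notch2 higher with Pax5 (563 and 467 against 169 and 192, -1.51 ± 0.23, adjusted p = 0.00054). Notch1 read 467 and 531 with Ebf1 against 354 and 386 with Pax5 and did not pass (0.43 ± 0.19, adjusted p = 0.18).

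Set against the empty vector, which brings in 2 further libraries but reuses the 4 above, the Ebf1 vector gave 321 higher genes (2.21%) and 111 lower genes (0.763%), together 2.97% of 14550. The Pax5 vector gave 458 higher (3.15%) and 136 lower (0.935%), together 4.08%. The contrasts share libraries, so only the values of single genes are set side by side. Myc was higher with Ebf1 (1.14 ± 0.25, adjusted p = 0.021) and lower with Pax5 (-1.13 ± 0.25, adjusted p = 0.021). The first call was lost without empty-vector replicate 1 (adjusted p = 0.31), its replicate 2 (adjusted p = 0.051) or Ebf1-vector replicate 2 (adjusted p = 0.30), and the second without empty-vector replicate 2 (adjusted p = 0.18) or Pax5-vector replicate 1 (adjusted p = 0.16) or 2 (adjusted p = 0.050). Il7r was lower with Pax5 (-1.19 ± 0.20, adjusted p = 0.0031) and did not pass with Ebf1 (0.28 ± 0.20, adjusted p = 0.78). Btg1 was higher with Pax5 (3.18 ± 0.33, adjusted p = 7.7e-05) and did not pass with Ebf1 (-0.12 ± 0.31, adjusted p = 1.00). Impdh1 was higher with Ebf1 (3.24 ± 0.29, adjusted p = 8.8e-06) and did not pass with Pax5 (-0.73 ± 0.28, adjusted p = 0.18). Oasl2 was lower with Ebf1 (-2.97 ± 0.41, adjusted p = 0.00053) and did not pass with Pax5 (0.90 ± 0.38, adjusted p = 0.24). Vpreb1 was higher with Ebf1 (8.44 ± 0.64, adjusted p = 1.6e-06) and did not pass with Pax5 (1.25 ± 0.71, adjusted p = 0.42). These 5 genes kept the calls named here without any 1 of the libraries compared. Cd24a was above the empty vector with both, by 4.98 ± 0.23, adjusted p = 7.4e-09 with Ebf1 and 2.79 ± 0.21, adjusted p = 3.1e-06 with Pax5. Leaving out each library of a contrast in turn, the Ebf1 counts ran from 153 to 231 higher and 24 to 51 lower, and the Pax5 counts from 131 to 291 higher and 28 to 66 lower.

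The same pair of vectors was also given to Pax5-KO cells, in 4 libraries that the comparison above does not use. The difference between vectors itself differed between the 2 backgrounds for 1056 of 14550 genes (7.26%). That count changed when any library was left out. In Ebf1-KO cells it was 491 and 366 without Ebf1-vector replicates 1 and 2, and 653 and 704 without Pax5-vector replicates 1 and 2. In Pax5-KO cells it was 1425 and 2394 without Ebf1-vector replicates 1 and 2, and 644 and 340.0 without Pax5-vector replicates 1 and 2. Of the genes also called in Ebf1-KO cells, the 10 with the smallest interaction p are given. Cd79a had the smallest p. In Pax5-KO cells it read 31.8 and 25.4 CPM with Ebf1 against 519 and 592 with Pax5, the reverse of the order in Ebf1-KO cells (interaction 6.71 ± 0.38, adjusted p = 5.4e-07). Pou2af1 read 205 and 298 against 681 and 942 in Pax5-KO (interaction 6.34 ± 0.40, adjusted p = 1.2e-06), and Cd24a 601 and 769 against 1629 and 2039 (interaction 3.61 ± 0.28, adjusted p = 5.0e-06). For these 3 genes Ebf1 gave more than Pax5 in Ebf1-KO cells and less than Pax5 in Pax5-KO cells. Cplx2, a complexin expressed in B cell precursors, read 7.33 and 10.6 against 0 and 0.0647 in Ebf1-KO and 58.1 and 41.6 against 116 and 126 in Pax5-KO (interaction 9.04 ± 0.58, adjusted p = 2.2e-06).

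The surrogate light chain genes were near 0 with Pax5 in Ebf1-KO cells but not in Pax5-KO cells. The backgrounds already differed with the empty vector. There the list of surrogate light chain and B cell receptor chains summed to 681 and 850 CPM in Pax5-KO and 4.39 and 5.21 in Ebf1-KO. Vpreb1 read 225 and 189.7 CPM with Ebf1 against 272 and 275 with Pax5 in Pax5-KO (interaction 7.59 ± 0.71, adjusted p = 3.9e-05), and Vpreb2 96.5 and 58.9 against 51.8 and 47.7 (interaction 8.04 ± 0.70, adjusted p = 3.9e-05). Clgn read 178 and 216 against 64.1 and 85.0 in Pax5-KO, a smaller difference in the same direction (interaction 9.29 ± 0.61, adjusted p = 1.2e-06). Alpl, a phosphatase, read 0 and 0 against 32.8 and 44.5 in Pax5-KO, and 0.627 and 0.456 against 0 and 0 in Ebf1-KO. Its groups at 0 make the fitted interaction depend on the prior count. The difference in Ebf1-KO alone, at least 9.37-fold at the floor, lost its call when only the 4 or the 6 Ebf1-KO libraries were fitted (adjusted p = 0.082 and 0.095).

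Rasgrp3 and Cybb, a subunit of the phagocyte oxidase, reversed the other way. Rasgrp3 read 102 and 104 CPM with Ebf1 against 37.8 and 34.8 with Pax5 in Pax5-KO (interaction -6.33 ± 0.47, adjusted p = 4.1e-06). Cybb read 75.1 and 84.7 against 24.9 and 27.5 there and 38.5 and 33.6 against 138 and 119 in Ebf1-KO (interaction -3.44 ± 0.32, adjusted p = 3.9e-05). Myc, too, differed between backgrounds: its Pax5-KO libraries held 307 and 445 CPM with Ebf1 against 499 and 670.1 with Pax5 (-0.64 ± 0.25, adjusted p = 0.15, interaction 2.90 ± 0.36, adjusted p = 0.00038). All 10 genes and Myc kept their interaction call without any 1 of the 8 libraries. The 2 backgrounds also differed in the sex-linked genes, whose list summed to 245 to 306 CPM in the 4 Ebf1-KO libraries and 2453 to 10430.0 in the 4 Pax5-KO libraries. In Pax5-KO cells the list read 10430.0 and 2594.7 CPM with Ebf1 and 5731 and 2453 with Pax5, so replicate 1 was the higher with each vector. The part of these differences in the interactions was not tested.

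**Figure D4:**
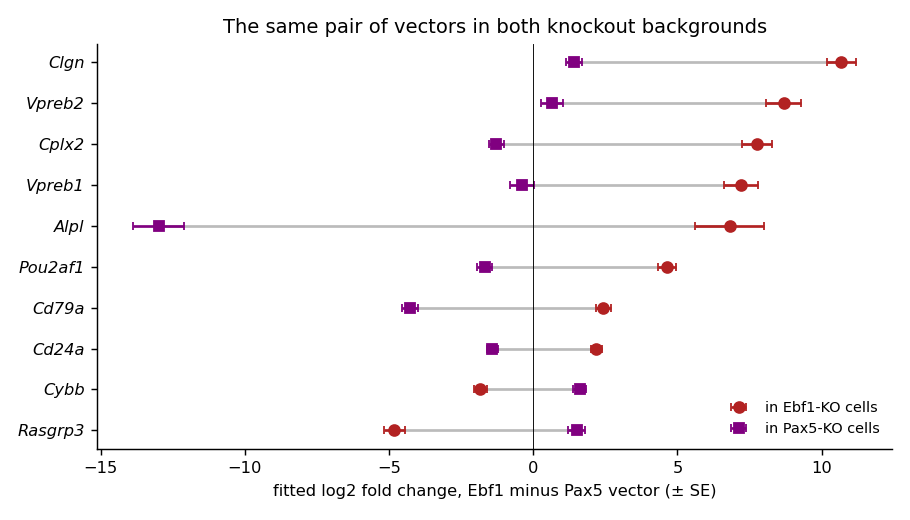
Fitted log2 fold change (Ebf1 minus Pax5 vector, ± SE) of the 10 genes with the smallest interaction p among those called in Ebf1-KO cells, in Ebf1-KO (red circles) and in Pax5-KO cells (purple squares). Cd79a, Pou2af1, Cd24a and Cplx2 lie above 0 in Ebf1-KO and below 0 in Pax5-KO, and Rasgrp3 and Cybb the other way, while the value of Alpl rests on groups at 0 counts.

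EBF1 binding was available from another cell, the pre-B line 230-238, as 1 list of 17230 peaks with a median width of 320 bp and a median score of 41. Scores are the authors' values for that list. A peak centre lay within 1 kb of the start of 225 of the 689 genes higher with Ebf1, or 32.7% (exact 95% interval 29.2 to 36.3). The share was 31.7% (28.5 to 35.1) among the 795 genes higher with Pax5 and 27.4% (26.7 to 28.2) among all 14550. The intervals of the 2 directions overlap, so a difference between genes higher with Ebf1 and genes higher with Pax5 was not detectable, and they cover counting error only. Within 5 kb the shares were 47.8, 47.5 and 37.9%. Among genes that differed by 3 or more on the log2 scale the share within 1 kb was 23.0% (17.4 to 29.5) of 200 higher with Ebf1 and 17.1% (11.6 to 23.9) of 158 higher with Pax5. The genes with the largest fold changes thus had peaks at the start no more often than all genes did.

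Peaks of high score lay at single genes of both directions. The peak 235 bp upstream of the Igll1 start, seen in the promoter above, had a score of 330 and ranked 34 of 17230. Alpl had a peak of score 223 centred 230 bp inside the start, Vpreb2 one of 141 at 271 bp upstream, Cd79a one of 134 at 190 bp upstream and Pou2af1 one of 121 at 405 bp upstream. On the side of Pax5, Oasl2 had a peak of score 191 centred 735 bp inside its start. Of the genes at 0 with Pax5, Tnnt2 had its nearest peak 4924 bp, Lgr6 9914 bp and Col26a1 12730.0 bp inside the start. Clgn and Ssc5d, whose ratios of counts were of similar size, had peaks 170.0 and 296 bp inside theirs. RefSeq promoter windows matched 526 of the 689 genes higher with Ebf1 (76.3%), 612 of 795 higher with Pax5 (77.0%) and 11334 of all 14550 (77.9%). With fewer than 80% of each set matched, a comparison of motif shares between the sets is void and none is given.

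**Figure D5:**
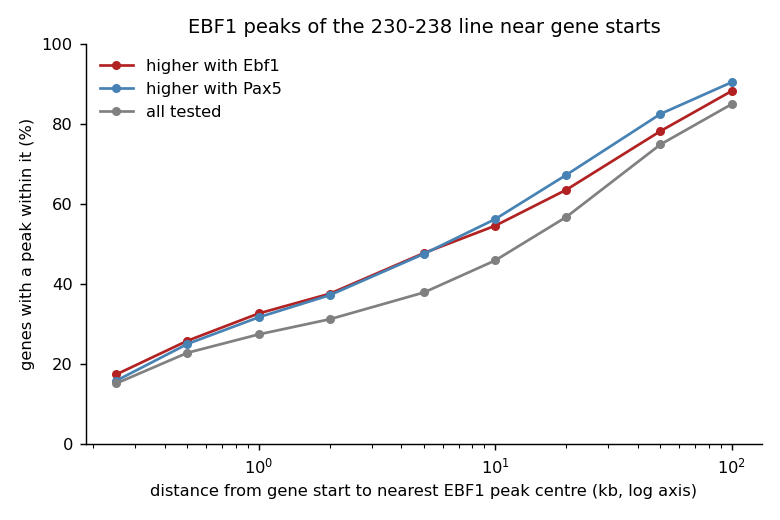
Share of genes (%) with an EBF1 peak of the 230-238 line centred within a given distance of the gene start (kb, log axis), for genes higher with Ebf1, genes higher with Pax5 and all genes tested. The 2 called sets run close together and above all genes, at 32.7, 31.7 and 27.4% within 1 kb.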

How the data were processed

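RNA values are exon counts per gene, made by the authors with HOMER and deposited without normalization, per the file headers. The submitters' processing notes name mm10, HOMER 4.8, STAR 2.6.0b-1 and DESeq2 among the tools, with no roles. EBF1 peaks carry a findPeaks score and a normalized tag count, a signal scaled by the authors, per the file headers. Contact profiles were not used here.

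The table holds 24506 genes, all 14 columns were mapped by name (0 unused), and an unnumbered Pax5-KO column was called replicate 1. The 14 libraries in 7 groups were fitted together with edgeR 4.0.16 (R 4.3.3, limma 3.58.1: TMM scaling, filterByExpr, quasi-likelihood test), with Benjamini-Hochberg adjustment over 14550 genes and a threshold of 0.05. CPM are counts per M of effective library size. A group at 0 was set to a floor of 3 counts per group, and 1 to 3 counts gave a ratio with an exact 95% counting interval. With 16.1 to 42.1 M counts a library, 1 count is well under 0.1 CPM. In simulated counts of 14173 genes, 100 genes were changed by 2 on the log2 scale and 100 by 1. The fit called 54 and 15 of these, and it also called 8 unchanged genes. A gene that did not pass may therefore still differ, and a called gene may be unchanged. Alternatives were other scalings, filters, library sets, a replicate block, DESeq2 1.42.0 and leaving out each library.

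Named were Ebf1, Pax5 and Myc, the 12 highest and 12 lowest fold changes among called genes without overlap and with a mean of at least 10 CPM in the higher group, up to 4 called members per list and direction by smallest p, and 10 interaction genes. A few genes that this rule names are not reported here. Members that did not pass and are named were picked after their values were seen. The comparison, the 31 gene lists (442 genes) and the tests were chosen with earlier results of these data known. Peak distance is from a peak's centre to the gene start. Promoters come from RefSeq (GRCm38.p6). No named gene higher with Ebf1 had both a peak within 1 kb and the full EBF palindrome, so promoters were picked by shorter letters.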

Additional observations from a re-analysis of the deposited data

Results flagged for a closer look

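The results below were picked out because the difference between the Ebf1 and the Pax5 vector in Ebf1-KO cells differed from that in Pax5-KO cells by a test of the difference itself (edgeR, adjusted p under 0.05). Values are the log2 vector difference in Ebf1-KO minus that in Pax5-KO. Positive values, which mean relatively more with Ebf1 in Ebf1-KO cells, were found for Cd79a (6.71), Pou2af1 (6.34), Clgn (9.29), Cplx2 (9.04), Cd24a (3.61), Vpreb2 (8.04), Vpreb1 (7.59), Myc (2.90) and Pax5 (2.43). Alpl had 19.79, a value that depends on the prior count because 1 group in each background was at 0. Negative values were found for Rasgrp3 (-6.33) and Cybb (-3.44). Pax5 is itself the vector gene, and in Pax5-KO cells it read 9.61 and 9.07 CPM with Ebf1 and 746 and 439.6 with Pax5. All 12 genes kept their call without any 1 of the 8 libraries.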

How the results depend on the processing

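The counts of called genes moved with the fit, and no named gene changed direction under the settings run. Genes higher with Pax5 numbered 1204 with only the 4 libraries, 1304 with only the 6 Ebf1-KO libraries and 1316 with DESeq2. Genes lower with Ebf1 than with the empty vector numbered 256 with no filter, 301 with the 6 libraries and 261 with DESeq2. Genes higher with Pax5 than with the empty vector numbered 701 with no filter and 831 with DESeq2, and lower ones 301, 273 (6 libraries) and 368 (DESeq2). Positive interactions numbered 807 with no filter and 841 with DESeq2, and negative ones 943 and 1146. Leaving out each library gave 290 to 437 genes higher with Ebf1 and 317 to 553 higher with Pax5, 153 to 231 and 24 to 51 higher and lower for Ebf1 against empty, 131 to 291 and 28 to 66 for Pax5 against empty, 143 to 1419 positive and 197 to 975 negative interactions, and 37 to 56 and 40 to 62 list members higher with Ebf1 and with Pax5. The cause was not tested.

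Replicate numbers are shared by the groups, and each number goes with 1 run tag in the column headers, whose meaning is not stated. The correlation of deviations between same-numbered libraries was 0.13 for the Ebf1-vector and Pax5-vector groups. It was 0.076 to 0.24 over the 15 pairs of knockout groups, 13 of them over 0.1, and -0.059 to 0.013 over the 6 pairs with wild type. Exons took 32.4 to 44.4% of the header total in the 6 knockout libraries numbered 1 and 50.7 to 65.4% in the 6 numbered 2. Since not every pair passed 0.1, the numbers were not taken as pairs, though the pair of groups compared here did pass it. A shift shared by replicate number therefore stays in the error of the main fit. Each run tag holds 1 library per group. With a replicate block 945 genes were higher with Ebf1 and 981 with Pax5, against 689 and 795 in the main fit. With the block 264 were lower with Pax5 than with the empty vector, and positive interactions numbered 832. For 130 named genes, 1029 of 1040 values under 8 other settings kept direction and call, 11 in 8 genes lost the call and 0 reversed. Leaving out a library, 400 of 520 kept the call and 120, in 44 genes, lost it. Of list medians, 211 of 248 moved less than the replicate spread under other settings and 69 of 124 when a library was left out. The median of the recombination list ran from -0.14 (without Ebf1-vector replicate 1) to 0.26 (without Pax5-vector replicate 1) and was -0.037 without Pax5-vector replicate 2, against 0.16 with all libraries. The share of calls higher with Ebf1 was 46.4%, 42.7% with RLE and 50.0% with upper quartile scaling. Peak shares for genes higher with Ebf1, higher with Pax5 and all were 47.8, 47.5 and 37.9% within 5 kb, and 16.1, 16.0 and 11.5% with peaks above the median score only.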

Other observations

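Some of the most abundant differences lay outside the gene lists, in genes picked here after their values were seen. H19, an imprinted noncoding RNA of fetal tissues, read 5056 and 6311 CPM with Ebf1 against 106 and 127 with Pax5 (log2 fold change 5.60 ± 0.31 SE, adjusted p = 1.3e-07). The empty vector gave 266 and 324 and wild type 465 and 466, so the Ebf1 libraries stood above all of these. Thrb, a thyroid hormone receptor, read 165 and 196 against 1.68 and 2.04 (6.59 ± 0.32, adjusted p = 3.3e-08), with 62.6 and 40.5 in wild type. Plxna1, a semaphorin receptor, read 271 and 280.1 against 15.3 and 22.6 (3.86 ± 0.28, adjusted p = 1.9e-06), and its Ebf1 level was close to the wild-type values of 286 and 263. Nav2, a protein of neurite growth, read 399.9 and 404 against 31.5 and 32.7 (3.64 ± 0.22, adjusted p = 2.8e-07). Ucp2, a carrier of the mitochondrial inner membrane, read 1926 and 2628 against 490.3 and 678 (1.96 ± 0.32, adjusted p = 0.0012).

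Myl4 and Mylk were picked after their values were seen. Myl4, a light chain of atrial and embryonic myosin, read 106 and 156 CPM with Ebf1 against 0.388 and 1.49 with Pax5 (log2 fold change 7.07 ± 0.57 SE, adjusted p = 2.9e-06), and Mylk, the myosin light chain kinase, 81.3 and 90.6 against 1.08 and 1.13 (6.27 ± 0.47, adjusted p = 2.1e-06). Not all neighbours of Tnnt2 were called. Pkp1 lies 19.1 kb from Tnnt2 and was higher with Ebf1 too, while Lad1, 2.99 kb from Tnnt2, and Tnni1, 25.3 kb from it, did not pass. Tnni1, the slow skeletal troponin I, read 68.7 and 72.6 with Ebf1 against 49.0 and 62.1 with Pax5 (0.35 ± 0.52, adjusted p = 0.75). Of 6 genes within 100 kb of Tnnt2, itself included, 2 were called. On chromosome 3, Car1, Car2 and Car3, the 3 genes found within 100 kb of Car3, were all higher with Ebf1, though Car1 lost its call without Ebf1-vector replicate 1 and without either Pax5-vector library (largest adjusted p = 0.11).

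Genes of the other direction included Itga4, the integrin alpha 4 chain, at 2338 and 2483 CPM with Pax5 and 415 and 407 with Ebf1 (log2 fold change -2.55 ± 0.25 SE, adjusted p = 1.4e-05). Elovl6, a fatty acid elongase, read 479.9 and 595 against 80.6 and 76.1 (-2.78 ± 0.22, adjusted p = 2.9e-06). Unc93b1, which carries nucleic acid sensing Toll-like receptors to endosomes, read 359.5 and 371 against 66.5 and 68.3 (-2.44 ± 0.21, adjusted p = 4.5e-06). Laptm5, a lysosomal protein of blood cells, read 1716 and 1977 against 533 and 722 (-1.56 ± 0.28, adjusted p = 0.0020).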
